A study of Mus musculus with 12 samples.

Results

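The enzymes that add methyl and acetyl groups to histone tails, or take them off, were followed in polysome-bound mRNA of mouse oocytes. Genes were chosen by symbol alone: those beginning with Kdm1 to Kdm8, Kmt, Setd, Hdac, Kat with a number, Ezh or Prmt, each read from its brightest probe set. This gave 59 of the 16579 genes measured, all protein coding. Of 71 matching symbols in the RefSeq table, 12 had no probe set under that name and were not analysed here, among them Hdac1, Kdm2b, Kmt2a, Setd1b, Setd3 and Setdb2. The symbols also took in Ezhip, which is an inhibitor of the H3K27 methyltransferase complex and no enzyme.

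Histone methyltransferases and demethylases write and erase methyl marks on lysine or arginine, whereas acetyltransferases and deacetylases set the acetylation of lysines. Methylation of H3K4 and H3K36 is found at active genes, and methylation of H3K9 and H3K27 at silent ones. A growing oocyte lays down the chromatin and DNA methylation it passes to the embryo, then stops transcription, so that proteins made during meiotic maturation are translated from mRNA already stored.

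The study took oocytes at 2 stages from 2 genotypes, with 3 arrays a group described as biological replicates. Mice were injected with PMSG to stimulate the follicles and 48 h afterwards with hCG in place of the ovulatory hormone surge. Oocytes at the germinal vesicle stage (GV, arrested in prophase of the first meiotic division) were taken at hCG 0 h, and oocytes at metaphase II (MII, ready for fertilisation) at hCG 14 h. The groups were thus wild-type and Areg knockout oocytes, each at GV and at MII, all from hormone-treated mice under the strain label C57BL/6J 129Sv; the knockout lacks amphiregulin, an EGF-family ligand made by the somatic cells of the follicle. The labels give no age, allele or number of animals or oocytes in a sample, so p-values measure only the spread between these samples. Values are log2 intensities. A change is limma's difference of group means with its SE, and a gene is said to have risen or fallen when its p, adjusted by Benjamini-Hochberg over all 16579 genes, was under 0.05.

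Markers that define oocytes were bright on all arrays: the medians of 15 of them lay at the 96.4th to 99.5th percentile of all genes, with 0 under an array's lower quartile. Of 19 cumulus and granulosa markers, 6 to 10 were under the lower quartile, and of 12 markers of blood, endothelium, theca and stroma, 4 to 6. The summed level of the first somatic list (log2) was 10.1 to 10.6 in wild-type GV, 10.96 to 11.19 in wild-type MII, 10.3 to 10.8 in knockout GV and 10.3 to 11.1 in knockout MII. That of the second was 10.2 to 10.50, 10.7 to 11.6, 9.76 to 10.2 and 9.46 to 10.04. The part of these somatic levels in the results was not tested. Areg itself lay near the lowest values in every group (means 2.36 to 2.72), so the arrays could not check the genotype. On each array control probe sets also read the 3' and the 5' end of a transcript, and their difference reflects how intact and how fully copied the RNA was. The 3' minus 5' difference for Gapdh was 2.00 ± 0.31 at GV and 3.23 ± 0.48 at MII in wild type, and 2.48 ± 0.75 and 2.71 ± 0.61 in the knockout (SD, n = 3). For Actb it was 0.36 ± 0.81 and -1.17 ± 0.18 in wild type, and 0.05 ± 0.56 and -0.77 ± 0.37 in the knockout. The part of these signals in the stage changes was not tested. The interquartile range of an array was narrower at MII, 3.82 ± 0.32 in wild type and 3.58 ± 0.37 in the knockout, than at GV, 4.37 ± 0.35 and 4.55 ± 0.14 (SD, n = 3). The narrowest ranges, 3.36 to 3.46, were those of knockout MII 2 and MII 3 and wild-type MII 2, the 3 narrow arrays. The part of these differences in the results was tested only by fits that took the interquartile range into account or left those 3 arrays out, whose values are given beside each of the 59 genes whose call they ended.

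Between GV and MII, 28 of the 59 genes were called in at least 1 genotype, as were 5545 of all 16579 genes. By count, more of the rises were of Jumonji demethylases than of any other enzyme class, and the largest falls were of acetyltransferases. With 14 genes the Jumonji demethylases were also the largest class. In wild type 7 of them rose. In the knockout 42.9% of them rose, the same share as of the 7 class II and IV deacetylases. In wild type 15 of the 59 rose from GV to MII and 6 fell, which is 25.4% and 10.2%. Over all genes 21.6% were called, 8.97% higher and 12.6% lower. In the knockout 15 rose and 9 fell, the latter 15.3%, against 28.2% of all genes, 13.0% higher and 15.2% lower. In this fit the share that rose was thus above that of all genes in both genotypes, and the share that fell was close to it or below. The median change of the 59 genes was 0.54 in wild type and 0.56 in the knockout, while the median over all genes was 0.20 and 0.30. In the fit with the interquartile range as a covariate (the spread covariate) that median was -0.03 and -0.04, which left 17 higher and 5 lower in wild type but 11 higher and 3 lower in the knockout. The shares of all genes called in that fit, or without the 3 narrow arrays, are not given here. Whether the excess of rises holds in them was not tested. Without the 3 narrow arrays the knockout counts were 8 and 7.

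Brightness differed between these probe sets and the rest, which bears on how often a change can be called. Of the 59, 43 lay above the median brightness of all genes, and Hdac11, Kdm4c, Kdm5a, Kdm5d, Prmt6 and Setd7 lay under the lower quartile of every array. In a fit on genes above that median alone, 15 of the 43 rose and 8 fell in wild type (34.9% and 18.6%), where 16.8% and 25.9% of all genes fitted did. In the knockout 14 rose and 9 fell (32.6% and 20.9%), where 14.4% and 29.3% of all genes fitted did. Counted by arrays alone, all MII arrays lay above all GV arrays for 22 genes in wild type and below them for 7, where 21.4% and 17.8% of all genes did so. In the knockout the counts were 23 and 9, where 31.7% and 19.9% of all genes did so.

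**Figure D1:**
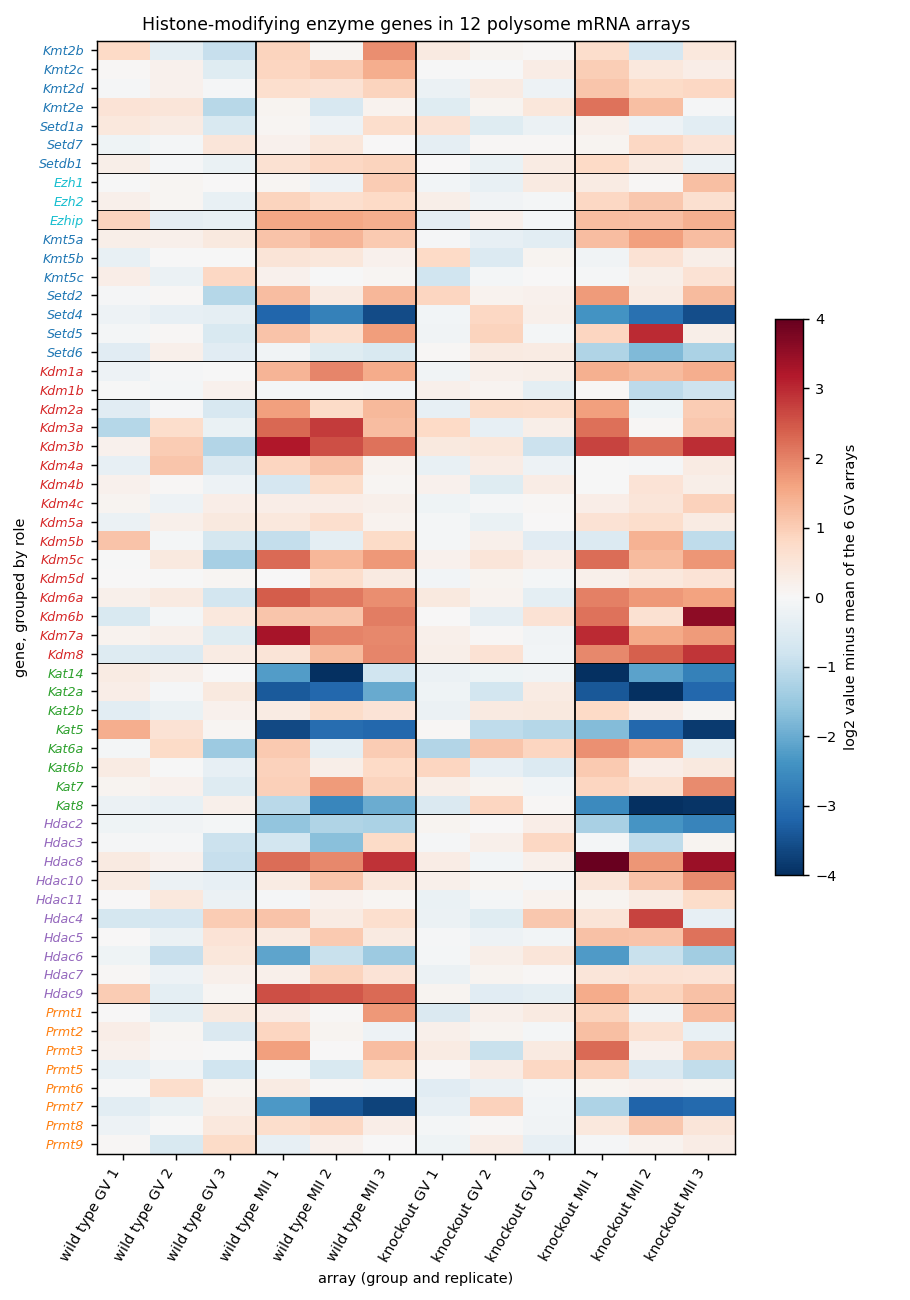
Each of the 12 arrays is a column and each of the 59 genes a row, grouped by role with the label colour naming the enzyme class. Colour is the log2 value minus the mean of the 6 GV arrays: red marks higher and blue lower, with values past 4 in either direction drawn at the end colours, and the strongest blue rows at MII are Setd4, Kat14, Kat2a, Kat5, Kat8 and Prmt7.

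The stage comparisons of the genotypes share no arrays, though they share the estimate of the spread. Called in both were 11 rises (Ezh2, Ezhip, Hdac8, Hdac9, Kdm1a, Kdm3b, Kdm5c, Kdm6a, Kdm7a, Kdm8 and Kmt5a), where 5.69% of all genes rose in both. Falls in both were 6 (Hdac2, Kat14, Kat2a, Kat5, Prmt7 and Setd4), where 10.6% of all genes fell in both. Another 11 genes passed in a single genotype. Kat7, Kdm2a, Kdm3a and Kmt2c rose by the wild-type call alone, where 3.25% of all genes did. Hdac10, Hdac5, Kdm6b and Kmt2d rose by the knockout call alone, where 7.27% of all genes did, and Hdac6, Kat8 and Setd6 fell by it alone, where 4.61% did. None of the 59 rose in one genotype and fell in the other, and 51 had changes of the same sign in both, as had 13947 of all genes. A call in a single genotype is no sign of a difference between them; that difference was tested by the interaction and is given after the enzyme classes. A gain or loss in polysome-bound mRNA may be a matter of how much transcript there is or of how much of it carries ribosomes, and in these bulk samples the 2 cannot be told apart.

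**Figure D2:**
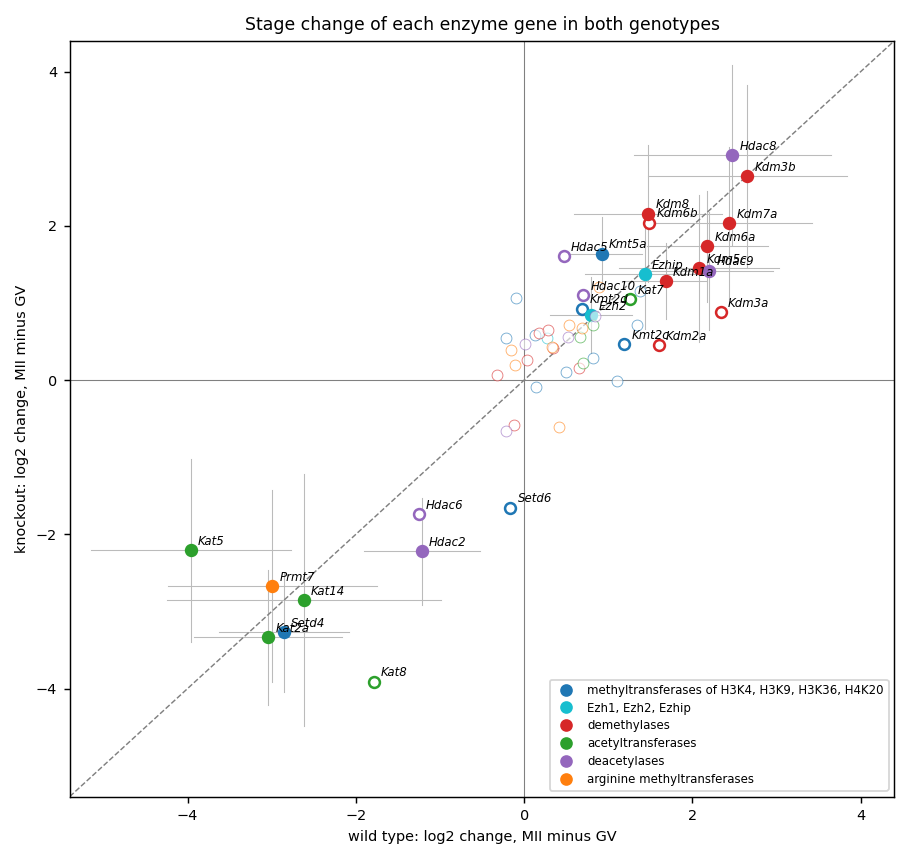
The change from GV to MII in wild type (x axis, log2) is set against that in the knockout (y axis, log2) for each of the 59 genes, with the dashed line marking equal changes. Large filled points were called in both genotypes and carry 95% intervals, named open points were called in one, and small open points in neither. The called genes lie in the upper right and lower left quadrants.

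Among the genes grouped here as methyltransferases of H3K4, the mark of active promoters and enhancers, 1 of 6 measured rose in each genotype and 0 fell. That is 16.7%, where 8.97% of all genes rose in wild type and 13.0% in the knockout. Kmt2d, which methylates H3K4 at enhancers, had log2 values of 11.06, 11.26 and 11.05 in wild-type GV and 11.76, 11.68 and 11.997 in wild-type MII. The knockout arrays read 10.87, 11.43 and 10.89 at GV and 12.19, 11.86 and 11.92 at MII. MII arrays lay above GV arrays in both genotypes. The change was 0.69 ± 0.23 in wild type, where it missed the threshold (limma, adjusted p = 0.0518), and 0.93 ± 0.23 in the knockout (adjusted p = 0.0128). Left without knockout GV 1 (0.83) or without the 3 narrow arrays (1.13), the knockout call was lost, and without knockout GV 2 the wild-type change passed. Kmt2d also passed in wild type after a further quantile normalisation (0.84), with the trended and robust prior, array weights or the spread covariate (0.89). Kmt2c, its close relative, rose by 1.19 ± 0.28 in wild type (adjusted p = 0.011) and was 0.46 higher in the knockout without passing. Kmt2b, Kmt2e, Setd1a and Setd7 passed in neither.

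Setdb1, which trimethylates H3K9 and silences retroelements in the germ line, was the sole H3K9 methyltransferase among the 59 genes. It read 10.65, 10.39 and 10.16 in wild-type GV against 11.05, 11.27 and 11.33 in wild-type MII. Knockout arrays read 10.46, 10.15 and 10.75 against 11.23, 10.78 and 10.20. The wild-type groups lay apart and the knockout groups overlapped. Neither change passed, at 0.81 ± 0.29 (limma, adjusted p = 0.0694) and 0.29 ± 0.29 (0.447). In wild type it passed without knockout MII 1 or MII 3, after a further quantile normalisation (0.98) and with the spread covariate (1.10). Of the H3K9 methyltransferases under other names, Suv39h2 rose by 1.03 ± 0.29 in wild type and 1.0 ± 0.29 in the knockout (adjusted p = 0.0247 and 0.0257) and Ehmt1 by 1.205 ± 0.22 in wild type (0.00246). Suv39h1 and Ehmt2 passed in neither genotype, nor did Ehmt1 in the knockout (0.20). The Suv39h2 calls were lost with the spread covariate (1.14 and 1.195), in wild type also without wild-type GV 1, GV 2 or MII 1 (0.84 to 1.06), and in the knockout without knockout GV 1, GV 3 or MII 1 (0.77 to 0.96).

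Ezh2, the catalytic subunit of PRC2, the complex that methylates H3K27, rose in both genotypes. Its values were 11.71, 11.59 and 11.24 in wild-type GV and 12.41, 12.20 and 12.33 in wild-type MII. In the knockout they were 11.75, 11.39 and 11.43 at GV and 12.36, 12.58 and 12.17 at MII. Every MII array lay above every GV array. The rise was 0.80 ± 0.22 in wild type and 0.84 ± 0.22 in the knockout, 1.74-fold and 1.80-fold (limma, adjusted p = 0.0246 and 0.0178). It is a call near the threshold: in wild type it was lost without GV 2, GV 3, MII 1 or MII 3 (0.66 to 0.84) and with only the compared groups fitted, and in the knockout without GV 2, GV 3, MII 2 (0.74 to 0.80) or the 3 narrow arrays (0.83). Ezh1, the alternative catalytic subunit, was 0.27 and 0.54 higher without passing. Ezhip rose by 1.44 ± 0.32 and 1.38 ± 0.32 (limma, adjusted p = 0.00828 and 0.0103). Its wild-type arrays read 13.08, 11.83 and 11.88 at GV and 13.72, 13.73 and 13.64 at MII. Its knockout call was lost with the spread covariate (1.58) and without the 3 narrow arrays (1.33).

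The other genes of PRC2 were read beside Ezh2. Of 10 partners measured, 7 rose in wild type and 6 in the knockout, 0 fell, and the median change was 1.11 and 0.82. Suz12, a core subunit, rose by 1.80 ± 0.55 and 1.76 ± 0.55, and Eed, the core subunit that reads trimethylated H3K27, by 1.14 ± 0.22 and 1.05 ± 0.22. The accessory subunit Phf19 rose by 2.25 ± 0.52 and 1.60 ± 0.52, and Aebp2 by 1.51 ± 0.47 and 1.78 ± 0.47. The histone-binding subunits Rbbp4 (0.67 and 0.85) and Rbbp7 (1.08 and 0.80) rose in both genotypes as well. Jarid2, which helps bring PRC2 to chromatin, rose in wild type (1.54 ± 0.35) and was 0.50 higher in the knockout without passing (limma, adjusted p = 0.28). Phf1, Mtf2 and Epop passed in neither genotype. The counts fell to 4 when single arrays were left out: in wild type without wild-type GV 1, GV 2, GV 3, MII 1 or knockout GV 2. In the knockout the lowest count over single arrays was 4, and the spread covariate gave 3. That fit ended the knockout calls of Suz12 (2.80), Phf19 (2.62), Rbbp4 (0.97) and Rbbp7 (0.80) and the wild-type call of Rbbp4 (0.73). Without the 3 narrow arrays both calls of Rbbp4 (0.71 and 0.83) and the knockout call of Rbbp7 (0.77) were lost. At least 1 single array ended the calls of Suz12 and Aebp2 in both genotypes, of Rbbp4 in wild type and of Phf19 in the knockout, with values of 1.24 to 2.00, 0.98 to 1.73, 0.52 to 0.71 and 1.14 to 1.61.

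**Figure D3:**
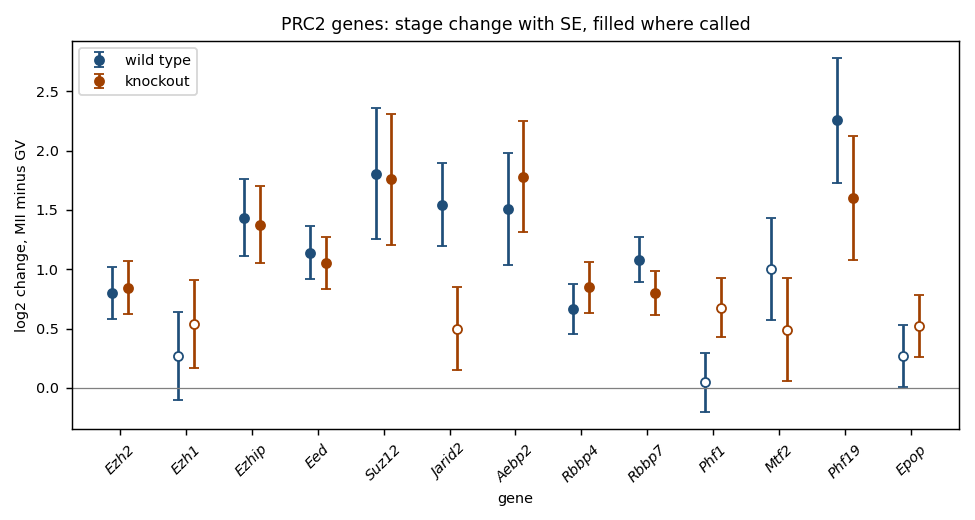
The change from GV to MII (y axis, log2, bars are SE, n = 3 arrays a group) is plotted for Ezh2, Ezh1, Ezhip and the 10 partners of PRC2, with wild type in blue and the knockout in brown. Filled points were called: 7 of the partners in wild type and 6 in the knockout, where 8.97% and 13.0% of all genes rose. Each point lies above 0.

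The remaining SET-domain methyltransferases split. Setd4, a lysine methyltransferase, had the largest fall of these SET-domain genes in both genotypes. It read 11.51, 11.40 and 11.36 in wild-type GV and 8.56, 9.02 and 8.13 in wild-type MII. Knockout arrays read 11.61, 12.53 and 11.92 against 9.34, 8.74 and 8.18. The stages lay more than 2 log2 units apart on all arrays. It fell by 2.85 ± 0.35 in wild type and fell by 3.27 ± 0.35 in the knockout, 7.22-fold and 9.63-fold (limma, adjusted p = 0.000272 and 0.000125), a call kept in every alternative.

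Kmt5a, the enzyme that places a single methyl group on H4K20 and is needed for chromosome condensation, rose. Its GV arrays read 8.24, 8.20 and 8.40 in wild type and 7.98, 7.68 and 7.59 in the knockout. Its MII arrays read 9.16, 9.38 and 9.07, and 9.25, 9.66 and 9.24. Knockout GV arrays lay below wild-type GV arrays, and both sets of MII arrays lay above all GV arrays. The rise was 0.92 ± 0.22 in wild type (limma, adjusted p = 0.0106, lost with the trended and robust prior) and 1.64 ± 0.22 in the knockout (adjusted p = 0.0004). Setd6, known for methylating the NF-kappaB subunit RelA, fell by 1.65 ± 0.26 in the knockout (adjusted p = 0.00119) and changed by -0.16 in wild type (0.686). That call was lost with the spread covariate (-1.35). Setd2, which trimethylates H3K36, was 1.35 ± 0.44 higher in wild type (adjusted p = 0.0512) and 0.71 in the knockout without passing. With the spread covariate Setd2 passed in both, at 2.26 and 2.32, and a further quantile normalisation gave calls at 1.60 and 1.16; the wild-type change passed too without any of knockout MII 1, knockout MII 2 or wild-type MII 2 (1.65). Kmt5b, Kmt5c and Setd5 passed in neither genotype.

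Both flavin-dependent demethylases erase methyl groups of H3K4, and they differed from each other. Kdm1a (LSD1), which is needed in mouse oocytes and for the embryo after fertilisation, read 10.55, 10.68 and 10.72 in wild-type GV and 12.09, 12.68 and 12.22 in wild-type MII. In the knockout it read 10.59, 10.94 and 10.96 at GV and 12.16, 12.003 and 12.18 at MII. The stages lay at least 1 log2 unit apart in each genotype. The rise was 1.68 ± 0.22 and 1.28 ± 0.22, 3.21-fold and 2.43-fold (limma, adjusted p = 0.000409 and 0.002). With the spread covariate the knockout call was lost (0.97).

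Kdm1b (LSD2), which oocytes need to set up maternal DNA methylation imprints, did not pass. Its wild-type arrays read 10.99, 10.91 and 11.17 at GV and 10.93, 10.91 and 10.88 at MII. Its knockout arrays read 11.21, 11.09 and 10.62 at GV and 11.03, 9.96 and 10.16 at MII. The stages overlapped in both genotypes. The change was -0.12 ± 0.29 in wild type, with a 95% interval that reaches from -0.77 to 0.53, and -0.59 ± 0.29 in the knockout (limma, adjusted p = 0.796 and 0.138). Without knockout MII 1 the knockout change passed, at -0.91.

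The Jumonji demethylases, which use iron and 2-oxoglutarate to remove methyl groups, were the largest class and held the most rises by count. Of 14 measured, 7 rose in wild type and 6 in the knockout, and 0 fell. Of all genes, 8.97% rose in wild type and 13.0% in the knockout, while 12.6% and 15.2% fell. The median change was 1.48 and 0.77, and 13 and 14 of the 14 changes were above 0. For all genes the median was 0.20 and 0.30, and 10172 and 10230 of the 16579 changes were above 0. Fewer passed without single arrays, with a low of 4 in wild type (without wild-type GV 1) and of 4 in the knockout. The spread covariate left 5 and 4, and without the 3 narrow arrays 7 and 3 passed.

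Kdm6a (UTX), an X-linked eraser of H3K27 methylation, rose in both genotypes. It read 10.18, 10.33 and 9.24 in wild-type GV and 12.39, 12.07 and 11.83 in wild-type MII. Knockout arrays read 10.36, 10.12 and 9.60, and then 11.98, 11.70 and 11.59. Every MII array exceeded every GV array by more than 1 log2 unit. The rise was 2.18 ± 0.33 in wild type and 1.74 ± 0.33 in the knockout, 4.52-fold and 3.33-fold (limma, adjusted p = 0.000831 and 0.00314), and it was called in every alternative.

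Kdm6b (JMJD3), the second eraser of H3K27 methylation, was more scattered at MII. Wild-type values were 7.31, 7.83 and 8.34 at GV and 9.00, 9.00 and 9.95 at MII. Knockout values were 7.90, 7.55 and 8.48, and then 10.06, 8.52 and 11.47. The stages did not overlap in either genotype, though knockout MII 2 was barely above knockout GV 3. The change was 1.49 ± 0.62 in wild type without passing (limma, adjusted p = 0.118) and 2.04 ± 0.62 in the knockout (0.0334). The knockout call was lost without knockout GV 1, GV 2, MII 1 or MII 3 (1.31 to 2.02), with the spread covariate (1.90) and with only the compared groups fitted. In wild type the change passed without knockout MII 2 or MII 3. It also passed there with only the compared groups fitted, with array weights (1.75) and with the replicate number as a block.

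Kdm3b, an eraser of H3K9 methylation, had the largest rise of the 59 genes in wild type. Its values were 6.68, 7.52 and 5.34 in wild-type GV and 9.72, 9.09 and 8.69 in wild-type MII. In the knockout they were 6.89, 6.98 and 5.67, and then 9.22, 8.77 and 9.48. The third GV array was lowest in both genotypes, and the stages lay apart. The rise was 2.65 ± 0.54 and 2.64 ± 0.54, 6.29-fold and 6.25-fold (limma, adjusted p = 0.00479 and 0.00487), lost in the knockout without the 3 narrow arrays (2.71).

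Kdm3a, which acts on the same mark, was dim at GV. Its wild-type arrays read 2.59, 4.45 and 3.46 and then 6.03, 6.53 and 4.95. Its knockout arrays read 4.52, 3.41 and 3.96 and then 5.93, 3.79 and 4.80. The wild-type stages lay apart and the knockout stages overlapped. Kdm3a rose by 2.34 ± 0.63 in wild type (limma, adjusted p = 0.0206) and was 0.88 higher in the knockout without passing. The wild-type call was lost without wild-type GV 1, GV 3, MII 1 or MII 2 (1.88 to 2.32) and with the spread covariate (2.55).

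Kdm7a, which erases methyl groups of H3K9 and H3K27, read 6.75, 6.83 and 6.14 in wild-type GV and 9.90, 8.59 and 8.54 in wild-type MII. The knockout read 6.80, 6.67 and 6.48, and then 9.60, 8.12 and 8.33. The first MII array was highest in both genotypes and all MII arrays lay well above GV. The rise was 2.44 ± 0.45 and 2.03 ± 0.45 (limma, adjusted p = 0.00274 and 0.00747), and the knockout value was 3.34 with the spread covariate.

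Kdm5c, an X-linked eraser of H3K4 methylation, read 7.97, 8.37 and 6.66 in wild-type GV and 10.25, 9.30 and 9.70 in wild-type MII. Knockout arrays read 8.14, 8.45 and 8.25, and then 10.21, 9.24 and 9.74. The stages did not overlap in either genotype. It rose by 2.08 ± 0.43 in wild type and 1.45 ± 0.43 in the knockout (limma, adjusted p = 0.00533 and 0.03). The knockout call was lost without knockout GV 1, GV 2, GV 3, MII 1 or MII 3 (1.21 to 1.54) and without the 3 narrow arrays (1.93), and with the spread covariate the value was 2.85.

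Of its paralogs, Kdm5b, needed for the broad H3K4 domains of mouse oocytes to be remodelled in the embryo, showed no stage pattern. It read 7.07, 5.86 and 5.22 in wild-type GV, 4.97, 5.53 and 6.69 in wild-type MII, 5.84, 6.14 and 5.47 in knockout GV and 5.39, 7.31 and 4.93 in knockout MII. All groups overlapped. The change was -0.32 ± 0.66 and 0.06 ± 0.66 (limma, adjusted p = 0.756 and 0.948), and the spread between arrays leaves sizeable changes undetectable here. Kdm5a was dim in all groups. Kdm5d, the Y-linked paralog, was near the lowest values (group means 2.73 to 3.14).

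Kdm8 (JMJD5), first described as an H3K36 demethylase, read 4.66, 4.62 and 5.50 in wild-type GV and 5.68, 6.42 and 7.10 in wild-type MII. In the knockout it read 5.40, 5.74 and 5.06, and then 7.10, 7.56 and 8.02. MII lay above GV in both genotypes, and knockout MII 2 and MII 3 lay above all wild-type MII arrays. The rise was 1.47 ± 0.40 and 2.16 ± 0.40 (limma, adjusted p = 0.0224 and 0.00291). The wild-type call was lost without wild-type GV 1, GV 2, MII 2 or MII 3 (1.12 to 1.46) and with only the compared groups fitted. Both calls were lost with the spread covariate (1.12 and 1.55) and without the narrow arrays (1.46 and 1.70). Kdm2a, an H3K36 demethylase, rose by 1.60 ± 0.46 in wild type (adjusted p = 0.03) and was 0.45 higher in the knockout without passing. Its wild-type call was lost without wild-type GV 1, GV 3, MII 1 or MII 3 (1.39 to 1.57). Kdm4a, Kdm4b and Kdm4c passed in neither genotype.

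**Figure D4:**
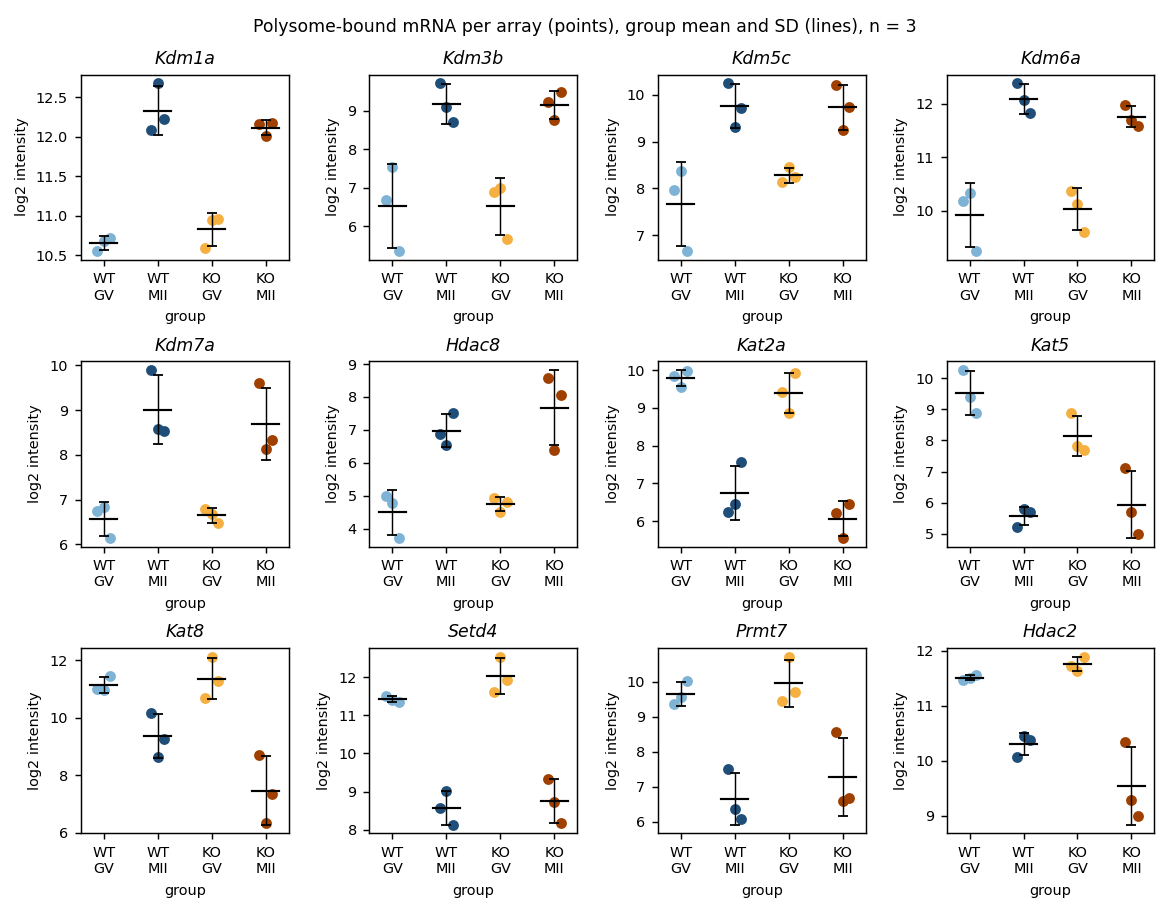
Log2 intensity (y axes, each with its own range) is shown per array in the 4 groups (WT, wild type; KO, Areg knockout) for 12 genes with large changes, with points for arrays and lines for the group mean and SD (n = 3). The 5 demethylases and Hdac8 are higher at MII in both genotypes, and Kat2a, Kat5, Kat8, Setd4, Prmt7 and Hdac2 are lower.

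The lysine acetyltransferases held the largest falls. Of 8 measured, 3 fell and 1 rose in wild type, and 4 fell and 0 rose in the knockout. Of all genes, 12.6% fell and 8.97% rose in wild type, and 15.2% fell and 13.0% rose in the knockout. The median change was -0.56 and -0.99. The falls counted 2 to 4 in wild type and 3 to 4 in the knockout when single arrays were left out, and the total of calls in wild type went from 4 to 2 without wild-type GV 1, GV 3 or MII 2. With the spread covariate 2 and 1 fell.

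Kat2a (GCN5), the acetyltransferase of the SAGA and ATAC coactivator complexes, read 9.85, 9.56 and 9.98 in wild-type GV and 6.24, 6.45 and 7.57 in wild-type MII. Knockout arrays read 9.43, 8.86 and 9.92, and then 6.20, 5.55 and 6.46. The stages lay about 2 log2 units or more apart. It fell by 3.04 ± 0.40 in wild type and fell by 3.34 ± 0.40 in the knockout, 8.25-fold and 10.1-fold (limma, adjusted p = 0.000386 and 0.000228), in every alternative. Its paralog Kat2b, of the same complexes, was 0.70 and 0.22 higher without passing.

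Kat14, a second acetyltransferase of the ATAC complex, was even at GV and scattered at MII. It read 11.79, 11.66 and 11.48 in wild-type GV and 9.22, 7.20 and 10.66 in wild-type MII. In the knockout it read 11.22, 11.27 and 11.30, and then 7.16, 9.32 and 8.75. All MII arrays lay below all GV arrays, wild-type MII 3 by the least. The fall was -2.62 ± 0.74 and -2.85 ± 0.74 (limma, adjusted p = 0.0271 and 0.0169). In wild type it was lost without GV 1, GV 2, GV 3, MII 1 or MII 2 (-2.72 to -1.70) and with only the compared groups fitted. Both calls were lost with the spread covariate (-2.34 and -2.36).

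Kat5 (TIP60), the acetyltransferase of the NuA4 complex that acts on H4 and in DNA damage signalling, had the largest fall of the 59 genes in wild type. It read 10.27, 9.41 and 8.90 in wild-type GV and 5.23, 5.78 and 5.69 in wild-type MII. Knockout arrays read 8.88, 7.82 and 7.70, and then 7.10, 5.69 and 5.00. Knockout GV arrays lay below all wild-type GV arrays, and MII arrays of both genotypes lay below GV. It fell by 3.96 ± 0.54 in wild type, 15.6-fold, and fell by 2.21 ± 0.54 in the knockout (limma, adjusted p = 0.000474 and 0.0126). It was lost in the knockout without knockout GV 1 (-1.83), with the spread covariate (-0.69) and without the 3 narrow arrays (-1.03).

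Kat8 (MOF), which acetylates H4K16 and is needed for follicle growth in mice, had the largest fall of the 59 genes in the knockout. It read 11.01, 10.96 and 11.47 in wild-type GV and 10.18, 8.64 and 9.27 in wild-type MII. Knockout arrays read 10.68, 12.13 and 11.30, and then 8.72, 6.33 and 7.33. The stages lay apart in both genotypes, and the lowest value of either group of MII arrays was in the second array. It fell by 3.91 ± 0.59 in the knockout (limma, adjusted p = 0.000882), a call lost with the spread covariate (-2.77). In wild type, the change of -1.79 ± 0.59 missed the threshold (adjusted p = 0.0536), and it passed in 7 alternatives, among them the fits without knockout MII 1, knockout MII 2 or wild-type MII 1 (-2.19). Kat7 (HBO1), which acetylates H3K14, went the other way. It rose by 1.26 ± 0.36 in wild type (adjusted p = 0.0299) and was 1.05 ± 0.36 higher in the knockout (0.0525). The wild-type call was lost without wild-type GV 1, GV 3 or MII 2 (1.00 to 1.35) and with the spread covariate (1.16), and the knockout change passed without wild-type GV 3, wild-type MII 2 or knockout MII 2 (1.29). Kat6a and Kat6b passed in neither genotype.

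The class I deacetylases moved apart. Hdac2, which acts with Hdac1 in the SIN3 and NuRD complexes, read 11.47, 11.50 and 11.57 in wild-type GV and 10.07, 10.44 and 10.38 in wild-type MII. Knockout arrays read 11.73, 11.64 and 11.89, and then 10.33, 9.28 and 8.99. The GV arrays were tight and all MII arrays were lower. Hdac2 fell by 1.22 ± 0.31 in wild type and fell by 2.22 ± 0.31 in the knockout (limma, adjusted p = 0.0172 and 0.000569). The wild-type call was lost without wild-type MII 1 (-1.10), and both calls with the spread covariate (-0.94 and -1.73). Without the 3 narrow arrays the knockout value was -1.42.

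Hdac8, which deacetylates the cohesin subunit Smc3, read 5.00, 4.79 and 3.72 in wild-type GV and 6.87, 6.55 and 7.52 in wild-type MII. The knockout read 4.93, 4.53 and 4.82, and then 8.58, 6.39 and 8.06. All MII arrays exceeded all GV arrays. The rise was 2.47 ± 0.53 and 2.92 ± 0.53, 5.56-fold and 7.55-fold (limma, adjusted p = 0.00649 and 0.0026). With the spread covariate the knockout value was 4.64. Hdac3, of the NCoR complexes, passed in neither genotype.

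Of 7 deacetylases of classes II and IV, 1 rose in wild type, and 3 rose and 1 fell in the knockout. The rises are 14.3% and 42.9%, where 8.97% and 13.0% of all genes rose. The knockout fall is 14.3%, where 15.2% of all genes fell. Hdac9, a class IIa enzyme, read 6.41, 4.99 and 5.47 in wild-type GV and 7.95, 7.87 and 7.64 in wild-type MII. Knockout arrays read 5.50, 4.93 and 4.99, and then 6.85, 6.28 and 6.54. MII lay above GV in each genotype, and knockout MII lay below wild-type MII. The rise was 2.20 ± 0.35 in wild type, 4.59-fold, and 1.42 ± 0.35 in the knockout (limma, adjusted p = 0.0011 and 0.0126). The knockout call was lost with the spread covariate (1.83) and without the 3 narrow arrays (1.71).

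Hdac5, of the same class, rose by 1.61 ± 0.33 in the knockout (limma, adjusted p = 0.00535) and was 0.47 higher in wild type without passing. This call was lost with the spread covariate (0.71). Hdac6, the cytoplasmic tubulin deacetylase, fell by 1.74 ± 0.45 in the knockout (adjusted p = 0.0167), a call lost without knockout GV 3 (-1.61) and after a further quantile normalisation (-1.08). With the spread covariate its knockout value was -3.30. In wild type its change of -1.25 ± 0.45 did not pass (0.0726), though it did without wild-type GV 2 (-1.61) or MII 2 (-1.55) and with the spread covariate (-2.14). Hdac10, a polyamine deacetylase, rose by 1.10 ± 0.36 in the knockout (adjusted p = 0.0425). That call was lost without any of 7 arrays, namely wild-type GV 2 and MII 3, all knockout GV arrays and knockout MII 2 and MII 3 (0.74 to 1.16), and with the spread covariate (0.49). It was also lost without the 3 narrow arrays (0.42). Hdac4, Hdac7 and Hdac11 passed in neither genotype.

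Of 8 arginine methyltransferases, 1 fell in each genotype and 0 rose. That is 12.5%, where 12.6% of all genes fell in wild type and 15.2% in the knockout. Prmt7, which places single methyl groups on arginine, read 9.36, 9.55 and 10.02 in wild-type GV and 7.49, 6.38 and 6.09 in wild-type MII. Knockout arrays read 9.45, 10.71 and 9.70, and then 8.57, 6.59 and 6.69. The stages lay apart, and the first MII array was highest in both genotypes. Prmt7 fell by 2.99 ± 0.56 and fell by 2.67 ± 0.56, 7.95-fold and 6.36-fold (limma, adjusted p = 0.00315 and 0.00586). The knockout call was lost with the spread covariate (-1.85) and without the 3 narrow arrays (-1.38).

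Prmt5, the main enzyme of symmetric arginine dimethylation and required for germ cell development, had overlapping stages. It read 6.30, 6.45 and 5.80 in wild-type GV, 6.49, 5.96 and 7.35 in wild-type MII, 6.64, 6.90 and 7.41 in knockout GV and 7.53, 5.99 and 5.60 in knockout MII. Knockout GV arrays lay above wild-type GV arrays, while the MII groups overlapped. The change was 0.42 ± 0.50 and -0.61 ± 0.50 (limma, adjusted p = 0.579 and 0.346). Prmt1, which makes asymmetric dimethylarginine, and Prmt2, Prmt3, Prmt6, Prmt8 and Prmt9 passed in neither genotype.

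In all, 31 of the 59 genes were called in neither genotype. Their changes ran from -0.32 (Kdm5b) to 1.38 (Setd5) in wild type and from -0.66 (Hdac3) to 1.21 (Prmt3) in the knockout. Above 0 lay 24 and 26 of them. Over all 16579 genes, called or not, 10172 changes in wild type and 10230 in the knockout lay above 0. When the spread covariate was added, Kmt2b (2.12) and Kat6b (1.32) passed in wild type, and Kmt2e (2.93) and Prmt3 (2.79) in the knockout. A further quantile normalisation gave calls in both genotypes to Kat6b (1.05 and 1.198) and Hdac7 (0.69 and 0.71). Without the 3 narrow arrays Prmt3 passed in both (1.37 and 2.32) and Setd5 in wild type (1.62). Of single arrays, leaving out wild-type GV 2 gave Kdm4a a call in wild type (1.17), knockout MII 2 did so for Setd5, and knockout MII 1 gave Kdm4c one in the knockout (0.76). Where a gene had further probe sets, 9 of 9 in wild type and 11 of 11 in the knockout gave the called gene the same direction and a call, though 28 of all 34 further probe sets held the same values as the one used.

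Histone-modifying enzymes under other names and the subunits of the enzyme complexes were counted by list. Of 32 further enzymes, 5 rose and 1 fell in wild type, and 4 rose and 4 fell in the knockout. In wild type this is 15.6% and 3.1%, where 8.97% and 12.6% of all genes rose and fell. In the knockout it is 12.5% and 12.5%, near the 13.0% and 15.2% of all genes. The deacetylase Sirt1 rose by 2.85 ± 0.48 and 1.65 ± 0.48, and the coactivator acetyltransferase Ncoa3 by 1.59 ± 0.26 and 1.73 ± 0.26. Naa40, which acetylates the N-termini of H2A and H4, rose in the knockout (2.36 ± 0.53). The methyltransferase Smyd2 fell by 2.92 ± 0.56 and fell by 2.67 ± 0.56, and the deacetylase Sirt7 fell by 2.32 ± 0.71 in the knockout (limma, adjusted p = 0.032). Rises and falls numbered 8 and 4 in wild type with the spread covariate and 9 and 1 after a further quantile normalisation, and 5 and 2, then 6 and 1, in the knockout. The covariate ended the knockout calls of Smyd2 (-2.82) and Sirt7 (-3.72), and the quantile normalisation that of Sirt7 (-1.70). Without knockout GV 2, GV 3 or MII 1 the knockout call of Sirt1 was lost (1.22 to 1.75), and that of Sirt7 without any of the 3 knockout GV arrays or MII 1 (-2.49 to -1.53).

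Of 12 partners of the H3K4 methyltransferases, 2 rose and 5 fell in wild type, and 4 rose and 4 fell in the knockout. In wild type this is 16.7% and 41.7%, where 8.97% and 12.6% of all genes rose and fell. In the knockout it is 33.3% and 33.3%, where 13.0% and 15.2% did. Men1, the menin gene, fell by 2.37 ± 0.59 and fell by 3.03 ± 0.59, and Pagr1a, a partner of the Kmt2c and Kmt2d complexes, fell by 2.63 ± 0.54 and fell by 2.77 ± 0.54. Psip1 rose by 1.45 ± 0.21 and 0.68 ± 0.21, Hcfc1 by 1.18 ± 0.35 and 2.07 ± 0.35, and Dpy30, a core subunit, by 1.38 ± 0.40 in the knockout. Other core subunits differed: Ash2l fell by 1.80 ± 0.39 and fell by 2.54 ± 0.39, and Rbbp5 fell by 1.89 ± 0.42 in wild type. Wdr5 passed in neither genotype. The spread covariate ended the calls of Ash2l (-1.38 and -1.80) and Rbbp5 (-1.44). Of the 12, 1 fell in wild type and 0 in the knockout once the spread covariate was added. That fit ended both calls of Men1 (-1.48 and -1.46) and of Hcfc1 (0.69 and 1.199), and the knockout calls of Pagr1a (-2.83), Psip1 (0.30) and Dpy30 (2.03). Without the 3 narrow arrays Men1 (-1.63) and Psip1 (0.61) lost theirs in the knockout. Of single arrays, wild-type MII 1 ended the wild-type call of Men1 (-2.09), wild-type GV 1, GV 2, MII 2 or MII 3 that of Hcfc1, each knockout array but MII 1 that of Psip1 in the knockout, and each but MII 3 that of Dpy30.

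Of 26 subunits of deacetylase complexes, 3 rose and 3 fell in wild type, and 3 rose and 5 fell in the knockout. In wild type this is 11.5% and 11.5%, near the 8.97% and 12.6% of all genes. In the knockout it is 11.5% and 19.2%, near the 13.0% and 15.2% of all genes. The scaffold genes of the SIN3 complex differed: Sin3a rose by 1.59 ± 0.23 and 1.43 ± 0.23, and Sin3b fell by 1.27 ± 0.22 and fell by 0.89 ± 0.22. Gatad2b, of the NuRD complex, rose by 1.498 ± 0.33 and 1.16 ± 0.33. Mta1, of the same complex, fell by 1.98 ± 0.46 and fell by 2.28 ± 0.46, and Brms1, a SIN3 partner, fell by 3.05 ± 0.55 in the knockout. Calls of deacetylase complex subunits, 6 in wild type and 8 in the knockout, were 10 in wild type after a further quantile normalisation, 11 with array weights, and 3 in the knockout with the spread covariate. That fit ended both calls of Mta1 (-1.79 and -1.94) and the knockout calls of Sin3b (-0.65), Gatad2b (1.01) and Brms1 (-3.42). Leaving out the 3 narrow arrays ended the knockout calls of Sin3b (-0.86) and Gatad2b (1.47), as did leaving out knockout GV 1 or MII 2 for Sin3b, and knockout GV 1, MII 1 or MII 3 for Gatad2b. The mean of its probe sets gave Sin3b -0.42 in the knockout, without a call.

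Of 26 subunits of acetyltransferase complexes, 6 rose and 5 fell in wild type, and 3 rose and 5 fell in the knockout. In wild type this is 23.1% and 19.2%, where 8.97% and 12.6% of all genes rose and fell. In the knockout it is 11.5% and 19.2%, near the 13.0% and 15.2% of all genes. Ing3, of the NuA4 complex that holds Kat5, rose by 2.38 ± 0.26 and 2.53 ± 0.26, whereas its NuA4 companions Epc1 (-2.17 ± 0.44 and -2.57 ± 0.44) and Epc2 (-2.60 ± 0.62 and -2.49 ± 0.62) fell. Sgf29, of the complexes that hold Kat2a, fell by 2.41 ± 0.31 and fell by 2.97 ± 0.31. Tada3, of those complexes, rose by 2.47 ± 0.59 in wild type, and Tada1 by 2.01 ± 0.49 in the knockout. The falls numbered 2 and 1 with the spread covariate, 3 to 5 and 2 to 6 without single arrays, and 3 in each genotype without the 3 narrow arrays or after a further quantile normalisation. Rises numbered 8 and 6 after that normalisation. The covariate ended both calls of Epc2 (-1.27 and -0.15), the knockout calls of Epc1 (-1.42) and Tada1 (1.95), and the call of Tada3 (2.49). The narrow arrays ended those of Epc2 (-1.81) and Tada1 (1.48) in the knockout and of Tada3 (2.32). Single arrays ended the calls of Epc2 (wild-type GV 2, -2.14, and knockout GV 1, -2.16) and Tada1 (knockout GV 2, 1.71). Of 4 partners of Prmt5, Clns1a fell by 3.47 ± 0.43 and fell by 3.33 ± 0.43, and the others did not pass (limma over all genes, adjusted p under 0.05 for each gene said here to rise or fall).

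Loss of amphiregulin left no call among the 59 genes at either stage. At GV 0 passed, as over all genes (0.0%), and 3 had an unadjusted p under 0.05 where 3.55% of all genes did. At MII 0 passed, where 0.0603% of all genes did, and 6 had an unadjusted p under 0.05 where 6.18% of all genes did. The differences at GV ran from -1.39 (Kat5) to 0.80 (Prmt5), and at MII from -1.90 (Kat8) to 1.23 (Kmt2e). The 95% interval of a difference reached 0.82 to either side of it in the median gene, and in single genes 0.48 to 1.73. Differences as large as those of Kat8 and Setd6 at MII did not pass the adjusted threshold.

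Knockout arrays lay above wild-type arrays at GV for Hdac2, Prmt5, Setd2 and Setd4, and below for Kat14, Kat5, Kmt5a and Prmt6. Over all genes 5.09% lay apart upwards and 4.75% downwards. At MII they lay above for Hdac5 and Kdm4c and below for Ezhip, Hdac9 and Setd6, where 4.14% and 4.16% of all genes lay apart. These counts are 4, 4, 2 and 3 of the 59. The smallest adjusted p among them at MII was that of Setd6, whose wild-type MII arrays read 10.61, 10.25 and 10.13 and knockout MII arrays 9.54, 8.99 and 9.46, a difference of -1.0 ± 0.26 (limma, unadjusted p = 0.003, adjusted p = 0.37). Hdac9 followed at -1.26 (unadjusted p = 0.0038, adjusted p = 0.43).

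**Figure D5:**
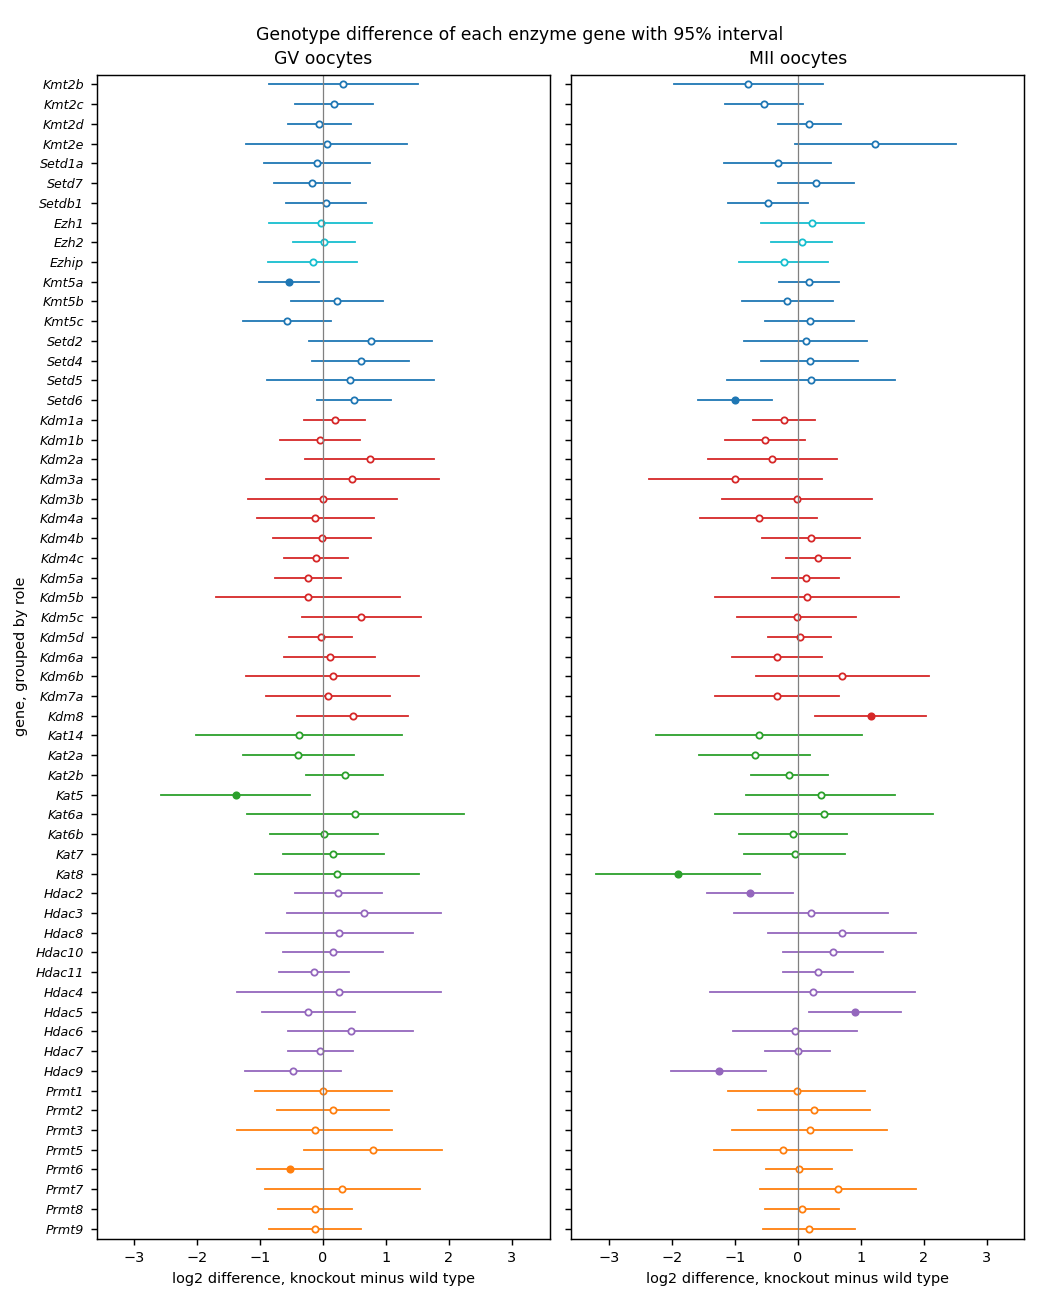
The difference of knockout minus wild type (x axes, log2) is shown for each of the 59 genes at GV (left) and MII (right), with 95% intervals and n = 3 arrays a group. Filled points have an unadjusted p under 0.05, and 0 passed after adjustment over all genes; the lowest is Kat8 at MII, at -1.90.

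The interaction, the knockout's stage change minus that of wild type, was called for 0 of the 59 genes and for 0.0% of all genes. An unadjusted p under 0.05 was reached by 6 of the 59, where 4.66% of all genes reached it. Setd6 had the smallest p, at -1.49 ± 0.37 (limma, unadjusted p = 0.00209, adjusted p = 0.77). The lowest value was that of Kat8, -2.12 (unadjusted p = 0.028, adjusted p = 0.94), and the highest that of Kat5, 1.76 (unadjusted p = 0.042). Hdac2 stood at -1.01 (unadjusted p = 0.045) and Hdac5 at 1.14 (0.0344). The 95% interval reached 1.16 to either side in the median gene. A genotype or interaction call for any of the 59 was absent from every alternative too.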

How the data were processed

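Per the submitters' processing notes the authors used RMA, and the deposited log2 intensities give each probe set 1 value on an array. The RMA version and settings, and the release of the probe set definition, are not given here by any label. RMA normally sets arrays to a shared distribution before probes are summarised, so changes are relative; the deposited gene values still differed in interquartile range, from 3.36 to 4.67. The labels name total RNA as the molecule but polysome-bound transcripts as the source, which is how the values are read. The cDNA was amplified before hybridisation, per the labels' protocols. Of 23950 probe sets, 64 were controls. Of the 23886 named by a RefSeq transcript, 21230 matched 1 symbol in a table of GRCm38.p6, 0 matched several and 2656 none. The probe set with the highest mean stood for a gene, leaving 16579 genes. Its brightness depends on its probes, so levels are not compared between genes. The table has no detection call, and precision is limited by the number of arrays. No array pair was identical, and 0 sample columns were left unused.

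All 12 arrays entered 1 limma fit (limma 3.58.1, R 4.3.3, lmFit and eBayes) with a mean per group, tested on simulated data. Tests were two-sided. Per-array values were to be given for called genes with a log2 change of 2 or more and for 10 genes with known roles in oocytes. Those of Kmt5a, of Ezhip in wild type and of Setd6 at MII were added after their values were seen. So were the 4 other H3K9 methyltransferases named beside Setdb1, and Ash2l, Rbbp5 and Wdr5 among the H3K4 partners. The genes, lists and alternatives were chosen with earlier results of these data known. The tests gave 21 alternatives for a stage comparison: quantile normalisation, trended and robust prior, array weights, spread covariate, compared groups alone, mean of probe sets, brighter genes, replicate block, each array left out, and the 3 narrow arrays left out.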

Additional observations from a re-analysis of the deposited data

How the results depend on the processing

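Of the 21 genes called from GV to MII in wild type, 13 kept their call in every alternative and 14 in every fit without 1 array, and 0 changed sign. Of the 24 called in the knockout, 6 and 17 did, and 0 changed sign. The count of called genes ran from 16 to 25 in wild type and from 19 to 25 in the knockout when single arrays were left out. In the knockout it was 14 with the spread covariate and 15 without the 3 narrow arrays, and the cause was not tested. Knockout interquartile ranges did not overlap between the stages (4.39 to 4.67 at GV, 3.36 to 4.01 at MII). The spread covariate thus cannot be cleanly separated from stage in the knockout. The fit without the narrow arrays keeps knockout MII 1 alone in its group. The genotype and interaction counts were 0 in each alternative. The replicate numbers were not taken to pair the samples: deviations of same-numbered arrays correlated at -0.12 to 0.26 (18 pairs, those of number 1 at 0.14 to 0.19), those of others at -0.27 to 0.23, and 8 of 12 arrays correlated best with an array of their own number. With the replicate number as a block 23 genes were called in wild type and 24 in the knockout; Setd2 and Kdm6b in wild type and Prmt3 in the knockout gained a call, and Hdac10 in the knockout lost one. With 3 arrays a group, changes of dim genes are limited by signal over background.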

Other observations

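The probe sets of 2 genes without a call disagreed in sign in wild type. For Kmt5b, the probe set used changed by 0.50 from GV to MII and its others by -0.13 and -0.70. For Prmt6 the values were -0.15 and 0.14. None of these passed the limma test.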
